A study of Mus musculus with 4 samples.

Results

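The genes described here are 10 genes of antigen presentation on major histocompatibility complex (MHC) class II, taken as the rows with those symbols among the 32285 genes of the count tables. They are the class II chains H2-Aa, H2-Ab1 and H2-Eb1, the invariant chain Cd74, the peptide-loading genes H2-DMa, H2-DMb1 and H2-DMb2, the transactivator Ciita, and the costimulatory ligands Cd86 and Cd80. All 10 were found, and the first 7 are also given as a sum, named here the class II sum. Myeloid-derived suppressor cells (MDSCs) were grown from mouse bone marrow in medium holding GM-CSF and IL-6, each at 40 ng/mL, and live CD11b+ cells were sorted on day 4 for single-cell RNA sequencing. The comparison made here asks how MDSCs of wild-type (WT) C57BL/6J mice differ with and without isoproterenol (ISO), a synthetic catecholamine. WT+PBS held cells without ISO (0 µM) and WT+ISO held cells with 10 µM ISO, 1 library each, and the number of mice behind a library is not given in the sources used here. These are 2 of the 4 libraries of the series. The sample titles were followed for ISO, although the treatment text of the labels names ISO for both.

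MHC class II molecules are pairs of an α and a β chain that show peptides from ingested or internal proteins to CD4+ T cells. The invariant chain (CD74) binds new class II pairs, blocks the groove and guides them to endosomes, where H2-DM removes the last piece of the invariant chain and lets peptides bind. CIITA is the coactivator that class II transcription depends on in dendritic cells, macrophages and B cells. CD80 and CD86 bind CD28 and CTLA-4 on T cells. MDSCs are known for holding T cells back, and immature myeloid cells typically carry little class II. Mice of the C57BL/6 strain make no Eα chain, so their Eβ transcripts (H2-Eb1) lead to no I-E molecule at the surface.

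CIITA does not bind DNA itself and acts through factors on the X box and the Y box of class II promoters, so the promoters that hold these letters are shown. RefSeq (build GRCm38.p6) gave promoters of 300 bases, 250 before to 50 after an annotated start, for 6 of the 10 genes. For H2-DMa, H2-DMb2 and Cd80 the windows lay inside the span of the gene given below, so their starts are not the first base of that span. The Y box was searched as CTGATTGG and the core of the X box as AACNGATG, on both strands. Capitals mark the matches, all of them on the gene's own strand and none overlapping another. H2-Aa (chr17:34287774-34288073, minus strand) held the Y box 51 bases before its start. H2-Eb1 (chr17:34305617-34305916, plus strand) held the X box core 89 bases and the Y box 62 bases before its start. H2-DMb1 (chr17:34152941-34153240, plus strand) and H2-DMb2 (chr17:34144999-34145298, plus strand) held the X box core 92 and 121 bases before their starts.
H2-Aa: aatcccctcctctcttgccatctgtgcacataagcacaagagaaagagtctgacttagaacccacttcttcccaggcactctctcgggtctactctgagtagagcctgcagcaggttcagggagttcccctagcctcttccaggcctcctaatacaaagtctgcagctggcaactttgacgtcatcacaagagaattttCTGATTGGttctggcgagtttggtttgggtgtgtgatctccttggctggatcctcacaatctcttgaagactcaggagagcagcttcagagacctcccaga
H2-Eb1: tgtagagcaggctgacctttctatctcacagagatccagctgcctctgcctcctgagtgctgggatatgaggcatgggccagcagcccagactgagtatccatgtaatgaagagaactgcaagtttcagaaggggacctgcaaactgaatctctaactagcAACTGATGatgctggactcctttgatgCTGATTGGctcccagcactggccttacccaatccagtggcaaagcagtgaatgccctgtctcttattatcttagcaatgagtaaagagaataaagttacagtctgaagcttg
H2-DMb1: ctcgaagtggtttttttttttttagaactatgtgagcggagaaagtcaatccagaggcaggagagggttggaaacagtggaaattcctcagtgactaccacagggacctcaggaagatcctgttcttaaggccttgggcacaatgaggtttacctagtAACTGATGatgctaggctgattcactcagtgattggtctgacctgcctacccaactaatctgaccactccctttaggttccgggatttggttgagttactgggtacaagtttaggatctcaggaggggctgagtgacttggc
H2-DMb2: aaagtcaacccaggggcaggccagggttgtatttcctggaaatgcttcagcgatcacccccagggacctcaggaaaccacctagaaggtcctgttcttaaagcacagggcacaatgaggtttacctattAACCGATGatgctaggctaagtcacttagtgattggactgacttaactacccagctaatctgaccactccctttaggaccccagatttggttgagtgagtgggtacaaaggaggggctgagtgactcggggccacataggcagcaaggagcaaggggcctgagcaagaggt
Of all 32851 promoters in the table, 4.10% held CTGATTGG, 2.32% held AACNGATG and 0.0944% held both, among them H2-Eb1. Neither run of letters was in the windows of H2-DMa or Cd80. Only these runs of letters were searched, so a box that differs from them by a letter would be missed. A match is a run of letters, and binding was not measured here.

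WT+PBS held 2210 cells after the filter and WT+ISO held 2264, together 4474 of 4532 in the files. They had 24393687 and 29400468 UMIs (unique molecular identifiers, each standing for a captured transcript). Median UMIs per cell were 8088.5 in WT+PBS against 10252 in WT+ISO. Single-cell suspensions were pooled before capture. Whether this gap came from sequencing depth, RNA per cell or the mix of cells was not tested. No barcode was shared between the libraries (0), and 0 cells had the multiplexing tag of another library as their leading tag. If cells were assigned to libraries by these tags, both counts are 0 by construction and check nothing. Itgam, which encodes the sorted CD11b, had 336 CPM (UMIs per 1000000 UMIs of the library) in WT+PBS against 290.0 in WT+ISO. Each group being a single library, the design has no replicates and allows no test. The exact 95% intervals cover counting error only, and not the spread between cultures or between cells. A level per library cannot tell fewer cells of a type from less RNA per cell.

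All 3 class II chains were lower in WT+ISO than in WT+PBS, at about the same ratio. H2-Aa, the α chain of I-A (chr17:34282744-34287823), had 107 CPM in WT+PBS against 35.8 in WT+ISO. The level in WT+ISO was 2.99-fold lower, a log2 ratio of -1.58 (95% interval -1.69 to -1.48). H2-Ab1, the β chain of I-A (chr17:34263227-34269418), had 92.7 CPM in WT+PBS against 31.6 in WT+ISO, a log2 ratio of -1.55. H2-Eb1, the β chain of I-E (chr17:34305867-34316674), had 66.9 and 23.9 CPM in the same order, a log2 ratio of -1.48. These UMI levels are not scaled by length, so they compare libraries and not genes.

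The loading genes were also lower in WT+ISO, by smaller ratios than the chains. H2-DMa, the α chain of H2-DM (chr17:34119693-34139101), had 139 CPM in WT+PBS against 78.3 in WT+ISO, a log2 ratio of -0.83. H2-DMb1 (chr17:34153191-34160229), a β chain of H2-DM, had 30.2 and 18.7 CPM, a log2 ratio of -0.69. H2-DMb2 (chr17:34143229-34151553), the other β chain, had 24.8 and 11.1 CPM, a log2 ratio of -1.16. H2-DMb1 and H2-DMb2 are near-identical copies, so their split of reads is uncertain.

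Ciita showed the lowest ratio among the 10 genes. Ciita (chr16:10480014-10531064) was counted in 158 UMIs in WT+PBS against 42 in WT+ISO. Its level of 1.43 CPM in WT+ISO was 4.53-fold below the 6.48 CPM of WT+PBS, a log2 ratio of -2.18 (-2.71 to -1.68). The interval is wide since the transcript was rare, with 200 UMIs over both libraries.

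Cd74 carried 59.0% of the class II sum's UMIs and had a ratio like that of the chains. The gene lies at chr18:60803849-60812652 and had 721 CPM in WT+PBS against 238 in WT+ISO, a log2 ratio of -1.60 (-1.64 to -1.56). The class II sum had 1182 CPM in WT+PBS against 438 in WT+ISO, a log2 ratio of -1.43 (-1.46 to -1.40).

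The costimulatory ligands differed from each other. Cd86 (chr16:36568956-36666158) followed the class II genes, with 88.9 CPM in WT+PBS against 34.4 in WT+ISO, a log2 ratio of -1.37. Cd80 (chr16:38457430-38495958) had 54.4 and 36.8 CPM in the same order, a log2 ratio of -0.56, the nearest to 0 of the 10 genes.

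**Figure D1:**
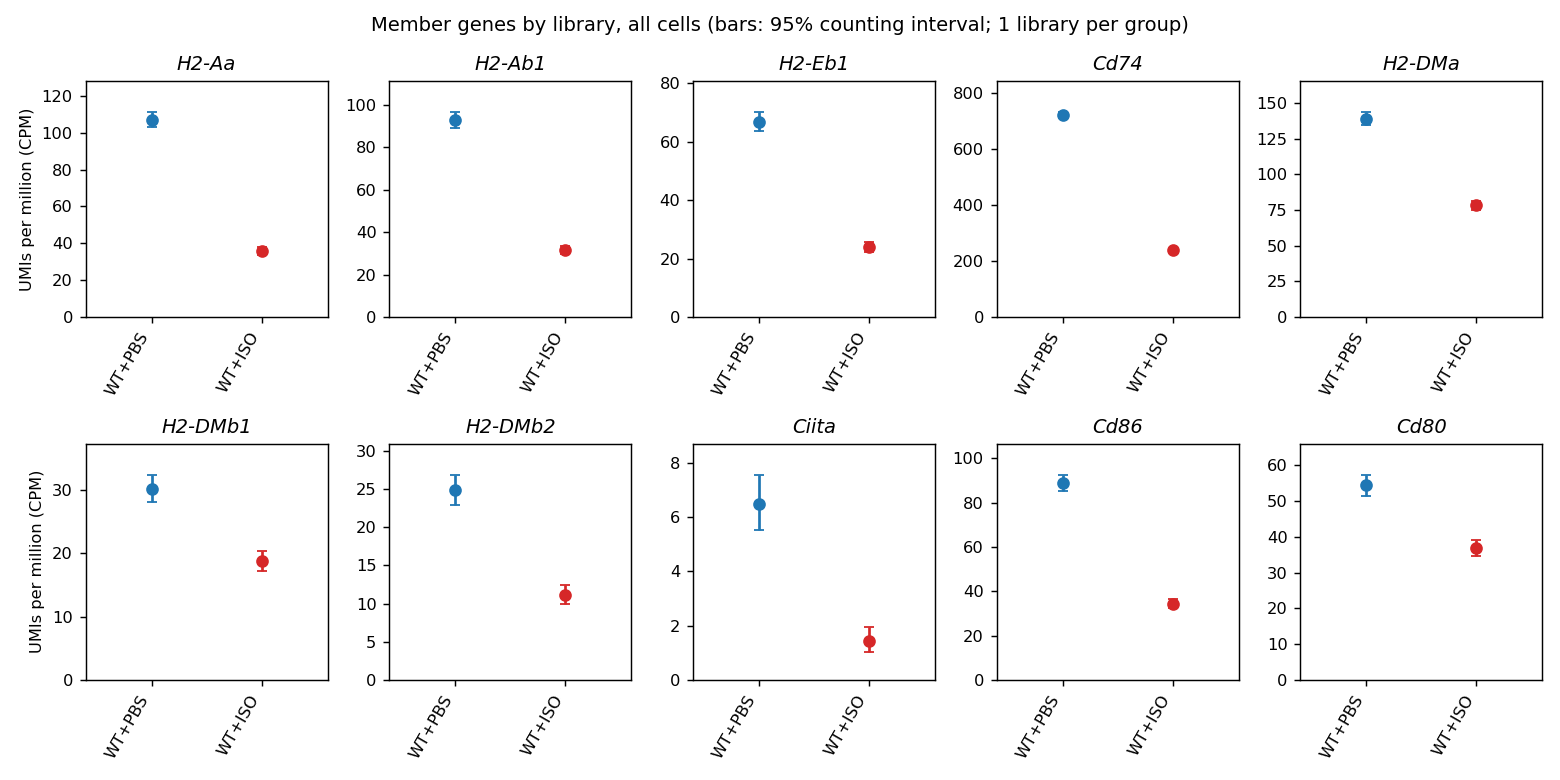
Level of each of the 10 genes in WT+PBS and WT+ISO, in CPM (UMIs per 1000000) on linear axes that start at 0, with bars for the 95% counting interval. WT+ISO is the lower point in all 10 panels, with the widest relative gap for Ciita (6.48 against 1.43 CPM) and the narrowest for Cd80 (54.4 against 36.8 CPM).

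Counted by size, 7 of the 10 genes were at least 2-fold lower in WT+ISO than in WT+PBS. The other 3 (H2-DMa, H2-DMb1 and Cd80) were lower by 1.78, 1.61 and 1.48 times. Among all 10771 genes with at least 100 UMIs over both libraries, 1.88% were 2-fold lower. The median log2 ratio was -1.43 over the 10 genes and -0.02 over all genes. Just inside the limit lay H2-DMb2, at 2.23-fold, and just outside it H2-DMa.

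The class II chains came from few cells. The 9303 kept cells of the 4 libraries were clustered together without the 10 genes and the other pathway genes, which gave 14 clusters. The leading genes and the names of clusters, here and below, come from the cells of all 4 libraries. Numbers of cells and levels are of the WT cells alone. Cluster 4 (289 cells, led by C1qb, Pf4 and Mrc1) was macrophage-like and cluster 5 (53 cells, led by Ccl5, Ccr7 and Fscn1) was migratory dendritic cell-like. Clusters 3, 9, 10, 11 and 12 (2268 cells) were neutrophil-like or neutrophil progenitor-like, and the other 7 (1864 cells) stayed unnamed. Cluster 5 held 66.5% of the UMIs of H2-Aa in WT+PBS against 68.0% in WT+ISO, and cluster 4 held 29.3% and 26.0%. H2-Eb1 was placed alike, with 74.4% and 70.2% in cluster 5. Ciita had 70.9% and 64.3% of its UMIs in cluster 5. H2-Ab1 was the least concentrated of the chains, with 54.9% and 46.4% in cluster 5. For H2-Aa and H2-Eb1 these shares lay close in both libraries. In 10 clusters of 3294 cells Ciita had 0 UMIs in both libraries together, which allows up to 0.0983 CPM there.

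Cd74, H2-DM and the costimulatory ligands were spread more widely. Over both libraries Cd74 had 2216 CPM in cluster 4 and 9211 in cluster 5, but also 754 in cluster 6 and 1131 in cluster 7, both unnamed, where H2-Aa had 3.26 and 1.47 CPM. Per 100 UMIs of Cd74 there were 73.5 UMIs of the 3 chains in cluster 5, 26.2 in cluster 4, 2.59 in cluster 6 and 2.47 in cluster 7. Clusters 6 and 7 (led by Htra3 and Gstt1) thus held invariant chain transcript with little chain transcript. H2-DMa had 373 CPM in cluster 4, 271 in cluster 6 and 301 in cluster 5, so cluster 5 did not stand out for it as it did for H2-Aa (2847 CPM against 236 in cluster 4). Cd80 had 106 CPM in the mature neutrophil-like cluster 10 and 301 in cluster 5, whereas Cd86 had 35.2 and 978.

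The placing of the UMIs of the loading genes and of Cd80 differed between the libraries, and so did the number of cells in the clusters. The neutrophil-like clusters held 935 of the 2210 cells of WT+PBS and 1333 of the 2264 of WT+ISO, and the macrophage-like cluster held 186 and 103, which moves these shares even at the same level per cell. The macrophage-like cluster held 36.3% of the UMIs of H2-DMa in WT+PBS against 18.1% in WT+ISO, and the neutrophil-like clusters held 12.3% and 32.2%. H2-DMb1 had 20.9% and 36.5% of its UMIs in the neutrophil-like clusters, H2-DMb2 11.4% and 35.2%, and Cd80 20.1% and 36.4%. In the neutrophil-like clusters themselves the level of H2-DMa was 44.2 CPM in WT+PBS against 46.7 in WT+ISO, a log2 ratio of 0.080 (-0.095 to 0.26). That of H2-DMb1 was 16.3 and 12.7 CPM, a log2 ratio of -0.37 (-0.68 to -0.053). That of H2-DMb2 was 7.31 and 7.25 CPM, and that of Cd80 28.3 and 24.8 CPM, with an interval that reached past 0 (-0.42 to 0.041). Cd74 there had 63.7 CPM in WT+PBS against 26.7 in WT+ISO, a log2 ratio of -1.26 (-1.44 to -1.07). In these clusters pooled it was thus lower while H2-DMa was not. Most of that came from cluster 10, where Cd74 had 473 CPM in WT+PBS against 171 in WT+ISO. H2-DMa had 111 and 89.2 CPM in cluster 10, a log2 ratio of -0.31 (-0.69 to 0.073), and was higher in cluster 11, at 0.50 (0.12 to 0.89).

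**Figure D2:**
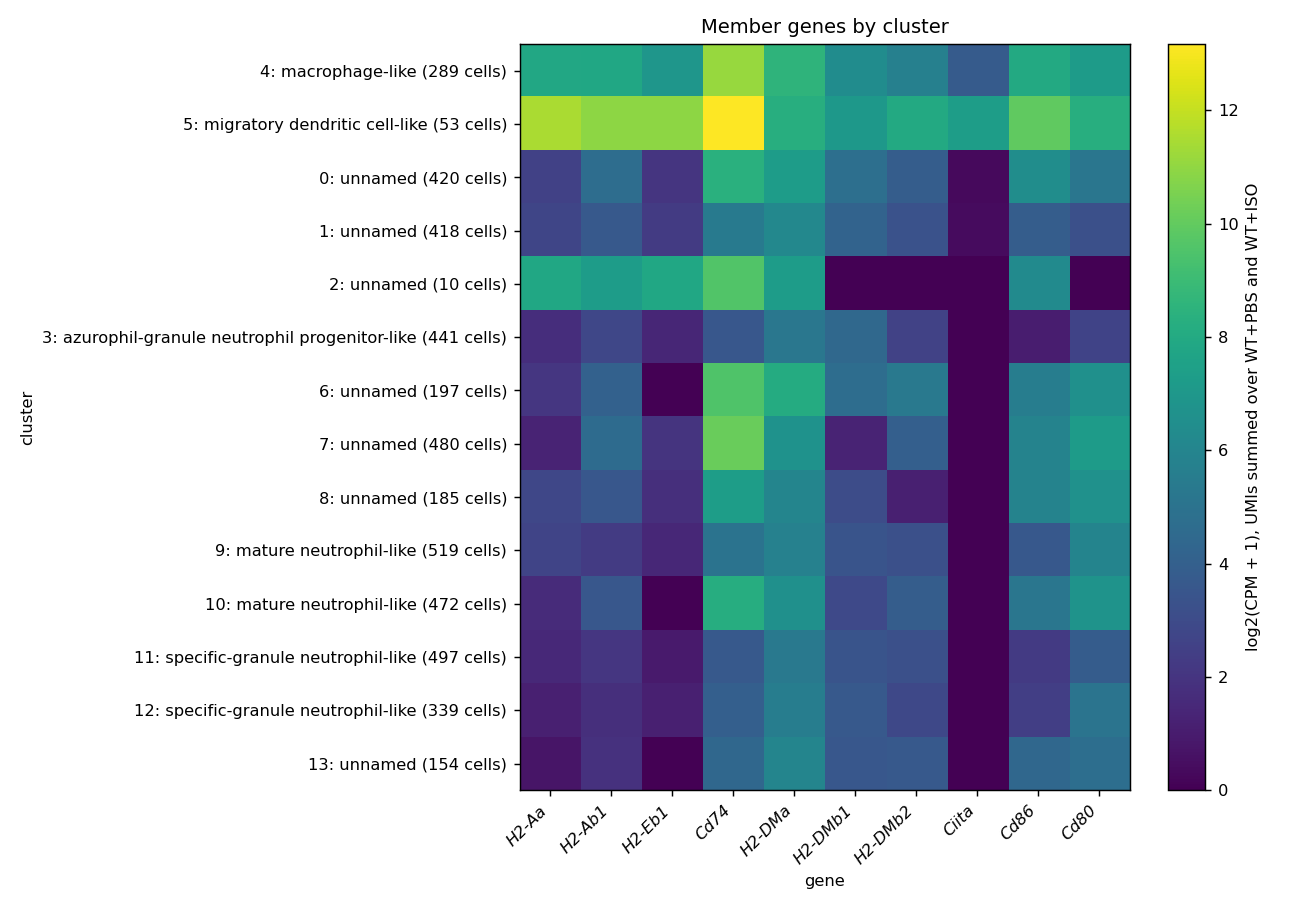
Level of the 10 genes in each of the 14 clusters, as log2(CPM + 1) of UMIs summed over WT+PBS and WT+ISO, with the number of WT cells in each cluster. H2-Aa, H2-Ab1, H2-Eb1 and Ciita are high in clusters 4 and 5, while Cd74 is also high in clusters 6 and 7. Cluster 2 holds 10 cells with a median of 1208.5 UMIs.

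**Figure D3:**
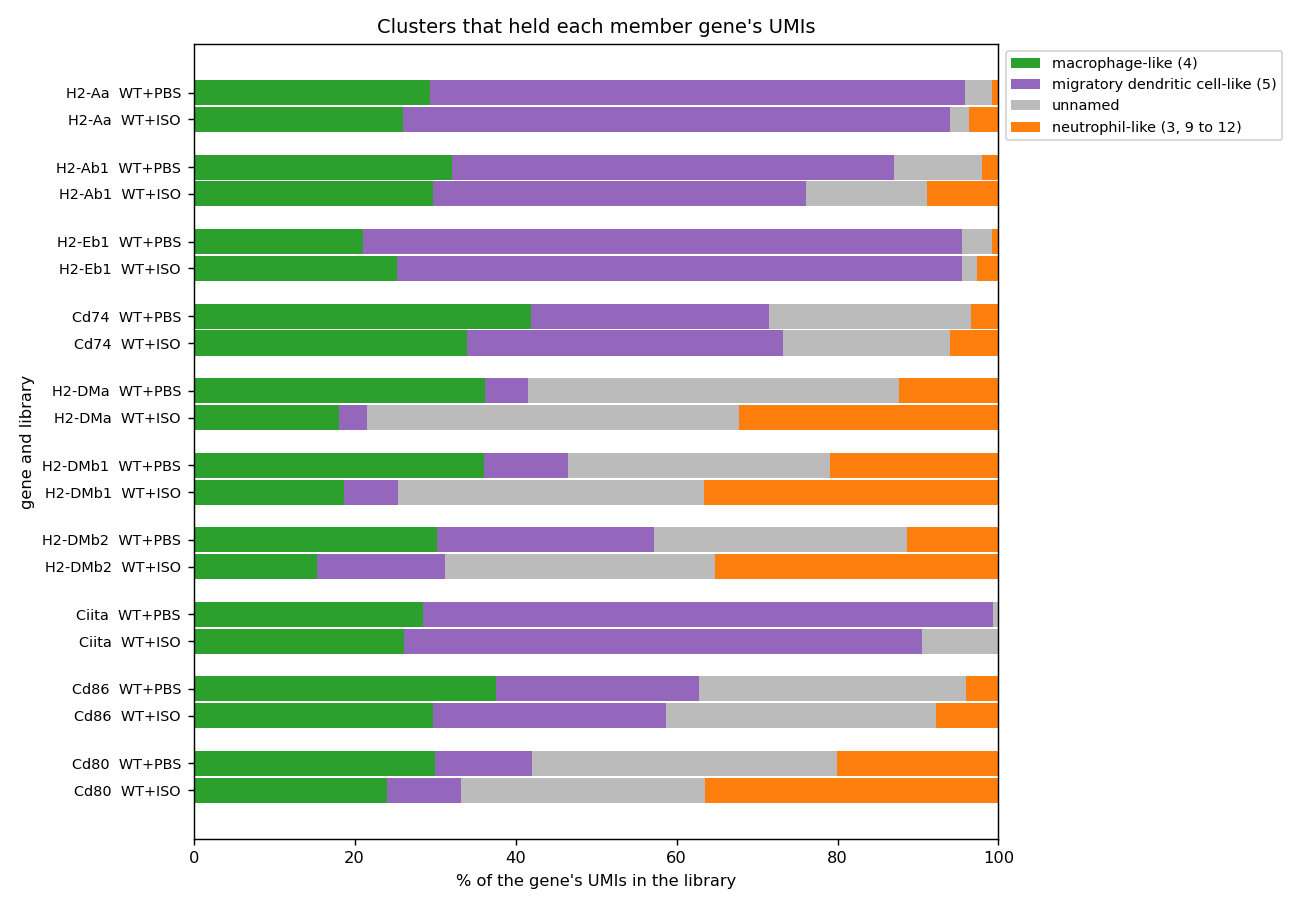
Share of each gene's UMIs, in percent, that lay in the macrophage-like, migratory dendritic cell-like, unnamed and neutrophil-like clusters, with a bar for each gene in WT+PBS and in WT+ISO. The bars of H2-Aa are alike in both libraries, whereas the neutrophil-like share of H2-DMa is 12.3% in WT+PBS against 32.2% in WT+ISO.

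Within a library, the UMIs of the chains sat in very few cells. In WT+PBS 16 of 2210 cells held 50% of the H2-Aa UMIs, and in WT+ISO 6 of 2264 did. For Cd74 it was 61 and 18 cells, for Cd86 78 and 42, for Cd80 141 and 130, and for H2-DMa 167 and 213. The counting intervals of the chains take no account of this. With each cell thinned to 1000 UMIs, the share of cells with a UMI of H2-Aa, H2-Ab1 or H2-Eb1 was 5.0% in WT+PBS (95% Clopper-Pearson interval 4.13 to 6.0) and 1.88% in WT+ISO (1.36 to 2.54). Without thinning the shares were 16.6% and 11.9%. The neutrophil-like clusters, read as the background from free RNA for the chains, gave 1.39% and 0.752% after thinning, at median depths of 6599 and 8736 UMIs before it. That reading is an assumption, since free RNA was not measured. For Cd74 the thinned share of all cells was 26.0% in WT+PBS against 9.81% in WT+ISO, and for Cd86 it was 6.14% and 2.91%. Cluster 10 is no background for Cd74, since 51.8% of its cells in WT+PBS and 29.0% of those in WT+ISO had a UMI of it without thinning. The other 4 neutrophil-like clusters, chosen after the values were seen, gave 1.82% and 1.95% for Cd74 after thinning, 0.701% and 0.185% for Cd86, and 0.982% and 0.741% for the chains. Of the 97 thinned cells with H2-Aa, 89.7% also had Cd74, while 87 of the 790 cells with Cd74 had H2-Aa.

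Inside the macrophage-like cluster the class II genes were again lower in WT+ISO, by smaller ratios than over all cells. The class II sum had 3944 CPM in the 186 cells of WT+PBS and 2237 in the 103 of WT+ISO, a log2 ratio of -0.82 (-0.87 to -0.76). H2-Aa had 277 and 167 CPM, a log2 ratio of -0.73 (-0.94 to -0.53), and Cd74 had 2672 and 1448 CPM, a log2 ratio of -0.88 (-0.95 to -0.82). H2-DMa had 445 and 253 CPM, and its log2 ratio of -0.81 was about that over all cells. Ciita was counted in 45 and 11 UMIs there, a log2 ratio of -1.28 (-2.38 to -0.31). The interval of H2-Eb1 reached past 0 (-0.20, -0.47 to 0.064). Of the 9 genes with enough UMIs there, 1 (H2-DMb2, -1.12) was 2-fold lower, where 0.953% of all genes in the cluster were. Cd86 had 295 and 182 CPM, and Cd80 had 144 and 158 CPM, a log2 ratio of 0.13 (-0.096 to 0.36).

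The cells gathered in cluster 4 were not alike in the libraries. Of its 10 leading genes, 7 were at least 2-fold lower in WT+ISO than in WT+PBS, among them C1qa (0.608 against 23.9 CPM) and Ccl17 (14.6 against 403 CPM), and 1 was higher (Pf4, 166 against 59.0 CPM). The sizes of this cluster are therefore given as numbers of cells alone, and its makeup and the level of the class II genes cannot be told apart. Most of its cells held few chain UMIs. The median was 0.558 chain UMIs per 10000 in WT+PBS against 0 in WT+ISO, and the 90th percentile was 27 and 5.46. Cells with at least 10 chain UMIs per 10000 made up 16.7% (11.6 to 22.8) in WT+PBS and 8.74% (4.07 to 15.9) in WT+ISO, with 16 and 3 cells near that limit, between 5 and 20. Among those cells the chains had 3646 CPM in the 31 of WT+PBS and 5735 in the 9 of WT+ISO. Among the other cells of the cluster the chains had 89.8 CPM in WT+PBS against 59.4 in WT+ISO. Both sets of cells were picked by their chain UMIs, so these levels cannot tell whether the libraries differed.

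A finer clustering gave a further cluster with high class II. At resolution 1.5 an unnamed cluster, led by Plet1, Dscam, Asgr2 and Ccl17, held 66 cells of WT+PBS and 16 of WT+ISO, of which 54 and 13 lay in cluster 4 and 12 and 3 in cluster 5. It held 23 of the 31 and 4 of the 9 cells of cluster 4 with at least 10 chain UMIs per 10000. Its class II sum was 9909 CPM in WT+PBS against 10622 in WT+ISO. The cluster is described here because its class II was high, which limits what its levels say about the libraries. H2-Aa had 1204 CPM in WT+PBS against 1633 in WT+ISO and H2-Eb1 had 758 and 1133, while H2-Ab1 had 1208 and 1310. Cd86 had 463 and 511 CPM. No intervals are given for this cluster of 66 and 16 cells. The gaps of the class II genes and of Cd86 in it are thus not read as differences. Ciita had 87.7 and 81.7 CPM, H2-DMa 647 and 454 CPM and H2-DMb2 208 and 159.8 CPM. Ciita, H2-Ab1 and H2-Aa were among its leading genes, although none was used to cluster. Ccl17 in it had 835 CPM in WT+PBS against 85.2 in WT+ISO, so its cells too differed between libraries and its sizes are not compared.

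The migratory dendritic cell-like cluster had the highest levels and few cells. Its class II sum was 16710 CPM in 37 cells of WT+PBS and 16578 in 16 of WT+ISO, a log2 ratio of -0.01 (-0.062 to 0.039). The genes in that sum differed in direction. Cd74 had 8843 CPM in WT+PBS against 9996 in WT+ISO, a log2 ratio of 0.18 (0.11 to 0.24), while H2-Aa had 2962 and 2600 CPM, a log2 ratio of -0.19 (-0.32 to -0.062). H2-Ab1 lay at -0.44 (-0.60 to -0.28) and H2-Eb1 at -0.21 (-0.36 to -0.054). Per 100 UMIs of Cd74 there were thus 80.9 chain UMIs in WT+PBS against 59.7 in WT+ISO. The chain levels in this cluster came from few cells. The chain limit used for the macrophage-like cluster was reached by all 37 cells of WT+PBS and 14 of the 16 of WT+ISO. In the cells that reached it the chains had 7153 CPM in WT+PBS against 7865 in WT+ISO. The limit is set on the chains themselves and took out cells of WT+ISO alone. These 2 levels therefore cannot tell whether the libraries differed. In the other cells of WT+ISO the chains had 119 CPM. Cd74 was not split in this way. Ciita had 191 and 98.2 CPM, a log2 ratio of -0.96 (-1.62 to -0.34). Cd86 lay at 0.19 (-0.024 to 0.39) and Cd80 at 0.40 (0.022 to 0.77). Of the cluster's 10 leading genes, 0 were 2-fold lower or higher between the libraries.

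**Figure D4:**
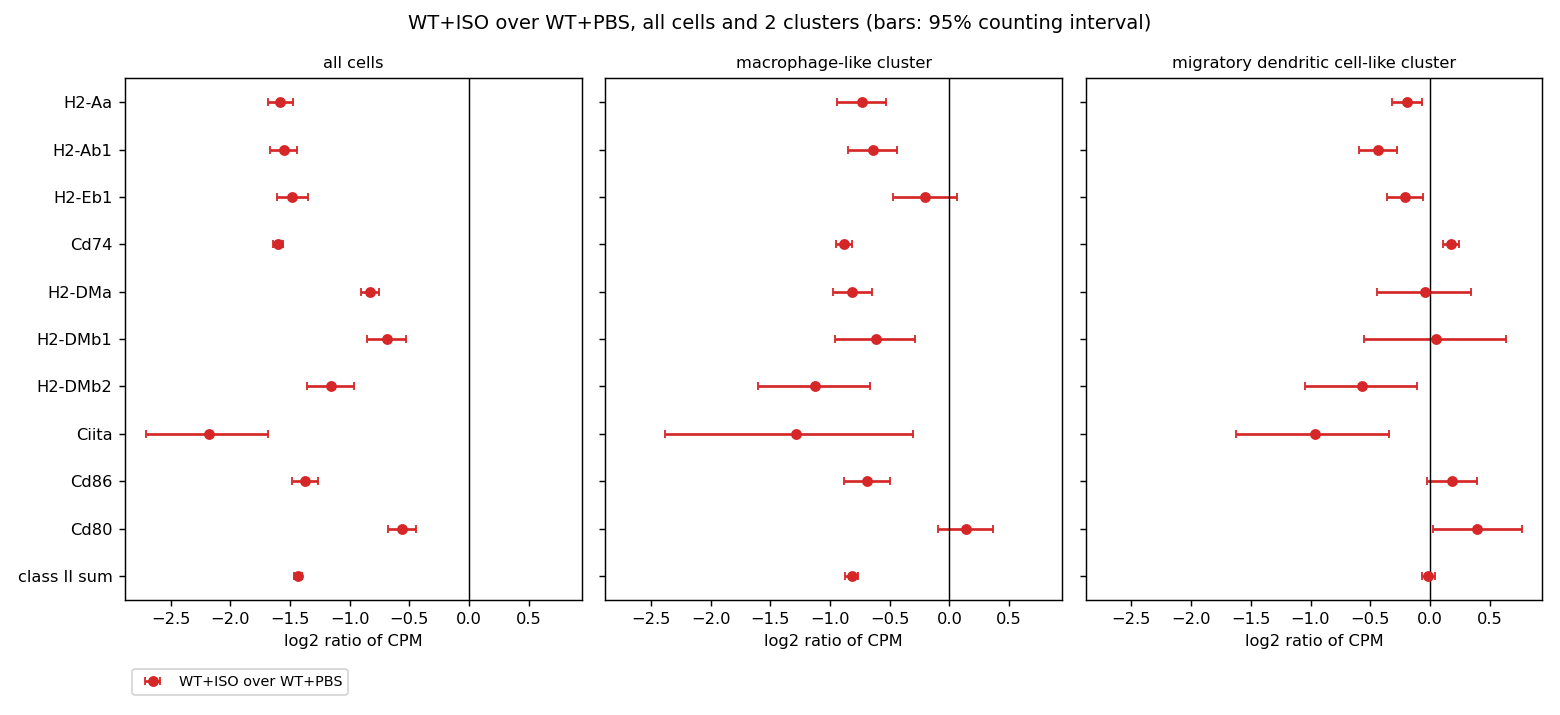
Log2 ratio of WT+ISO over WT+PBS for the 10 genes and the class II sum over all cells (left), in the macrophage-like cluster (middle) and in the migratory dendritic cell-like cluster (right), with bars for the 95% counting interval. The class II sum lies at -1.43, -0.82 and -0.01 in these panels, and Ciita lies left of 0 in each.

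In both clusters pooled, the class II sum had a log2 ratio of -0.53 (-0.56 to -0.49), with 6177 CPM in WT+PBS against 4292 in WT+ISO. Cluster 5 held 34.0% of the class II UMIs of WT+PBS and 35.4% of those of WT+ISO. When every cluster was held at the same weight in both libraries, its mean share of UMIs over the 4 libraries, the ratio over all cells was -0.61 in place of -1.43. At these weights H2-Aa had a ratio of -0.45, Cd74 -0.70, Cd86 -0.57, Cd80 -0.035 and Ciita -1.01. No intervals and no share of all genes past 2-fold are given at these weights. The weights set aside how many cells of each cluster a library held. Cd74 was also lower in WT+ISO in unnamed clusters, at -1.34 (-1.47 to -1.21) in cluster 0, -1.47 (-1.69 to -1.27) in cluster 6 and -1.02 (-1.19 to -0.86) in cluster 7.

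Other genes of the pathway mostly lay closer to 0 where they had at least 100 UMIs over both libraries, and the rarer ones did not. Of 31 companion genes with a row in the files, 25 had that many UMIs, with a median log2 ratio of -0.18. Of the 25, 1 was 2-fold lower in WT+ISO (Cd83, -1.51), where 1.88% of all genes were. The 11 transcription factors of the class II promoters and of interferon signaling (Rfx5, Rfxap, Rfxank, Nfya, Nfyb, Nfyc, Creb1, Spi1, Irf1, Irf4 and Irf8) had a median of -0.045, with 0 past 2-fold. Irf4, a factor of dendritic cells and alternatively activated macrophages, was the lowest at -0.68, with Irf8, a factor of monocyte and dendritic cell development, at -0.67. Rfxank, a subunit of the RFX complex on the X box, was the highest at 0.19. Among the 7 endosomal enzymes, Lgmn, a protease of the endosome, was lowest at -0.80 and Ctsl, a cathepsin that cuts the invariant chain, highest at 0.15. Ctss, the cathepsin that makes the last cuts of the invariant chain in dendritic cells, lay at -0.78. March1, the ubiquitin ligase that takes class II and CD86 off the surface, lay at -0.56. The other costimulatory and coinhibitory ligands with enough UMIs ran from -1.51 (Cd83, a marker of mature dendritic cells) to -0.41 (Cd274, which encodes PD-L1). H2-Oa, the α chain of the H2-DM inhibitor H2-DO, lay at -0.25. These ratios are over all cells, and some had another direction in the macrophage-like cluster. Lgmn lay there at 0.44 (0.13 to 0.75), March1 at 0.18 (0.035 to 0.32) and Cd274 at 0.50 (0.19 to 0.81). Irf8 lay at 0.084 (-0.29 to 0.46) and Ctsl at 1.21 (1.06 to 1.36). Ctss (-0.18, -0.29 to -0.068) and Irf4 (-0.64, -1.21 to -0.10) stayed below 0 there. The intervals of Cd83 (-1.32, -3.08 to 0.125) and H2-Oa (-0.13, -0.91 to 0.62) reached past 0. Of the 6 companions under 100 UMIs, 5 had intervals wholly below 0. The share of equally rare genes with such an interval is not given here. H2-Ob, the β chain of H2-DO, had 46 UMIs in WT+PBS against 12 in WT+ISO, a log2 ratio of -2.21 (-3.26 to -1.27). Cd40, the receptor through which T cells license dendritic cells, had 30 and 9 UMIs, a log2 ratio of -2.01 (-3.27 to -0.89). H2-Eb2, a further class II β chain gene, had 20 and 6 UMIs, at -2.01 (-3.61 to -0.64). The costimulatory ligands Tnfsf4 and Tnfsf9 lay at -1.95 (-3.75 to -0.43) and -1.45 (-2.12 to -0.81). Cd70, with 5 UMIs in each library, lay at -0.27 (-2.39 to 1.85). Clusters 4 and 5 held 100% of the UMIs of H2-Eb2 and Cd70, 95.2% of Tnfsf4, 89.7% of Cd40 and 84.5% of H2-Ob. For Tnfsf9 it was 31.6%. These clusters held 223 cells of WT+PBS and 119 of WT+ISO. In cluster 4 no interval of these 6 genes lay wholly below 0.

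The class I genes stood near 0 over all cells. Over the 10 class I genes (H2-K1, H2-D1, B2m, Tap1, Tap2, Tapbp, Nlrc5, Psmb8, Psmb9 and Erap1), the median log2 ratio was -0.037. Of them 0 passed 2-fold, which is near the 1.88% of all genes that were 2-fold lower. They ran from -0.11 for Tapbp, the peptide-loading tapasin, to 0.12 for Erap1, which trims peptides for class I. H2-K1, a class I heavy chain, lay at -0.065.

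The genes most like the class II sum over 25 sums of a cluster in a library were Plekha1 (Pearson r 0.954), Cdc42bpb (0.95), Ahcyl2 (0.95), Cst3 (0.947), Tmem123 (0.94), Bcl2a1d (0.94), Jak2 (0.937), Rnf180 (0.929), 9330136K24Rik (0.926) and Tcf4 (0.925). Cst3 encodes an inhibitor of cathepsins. The sums share libraries and clusters, so r is a description. The log2 ratio of WT+ISO over WT+PBS ran from -1.71 for Rnf180 to 0.0020 for 9330136K24Rik.

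Markers of other class II-positive cells were counted over all cells. The 8 macrophage markers summed to 205 CPM in WT+PBS against 92.1 in WT+ISO. The 8 conventional dendritic cell markers summed to 128 and 48.0 CPM, mostly from Mgl2 and Itgax, while Flt3 had 10 and 15 UMIs and Xcr1 0 and 4. The 6 migratory dendritic cell markers summed to 126 and 39.2 CPM, and each of the 6 was lower in WT+ISO. Ccl17 was the largest part in WT+PBS, at 63.5 CPM against 8.37 in WT+ISO. In the macrophage-like cluster 4 it had 403 and 14.6 CPM, whereas in cluster 5 it had 706 and 771 CPM. These 3 lists were lower in WT+ISO, as the class II sum was. The 6 monocyte markers summed to 1691 CPM in WT+PBS against 1601 in WT+ISO, with genes in both directions. Ly6c2 had 1017 and 1253 CPM and Vcan 129 and 129. Ccr2 (130 and 70.9 CPM), F13a1 (265 and 103) and Fn1 (150 and 45.6) were lower in WT+ISO. Ms4a4c had 13 and 3 UMIs. The neutrophil lists were higher in WT+ISO. The 6 specific-granule markers summed to 14797 and 21480 CPM, the 6 azurophil-granule markers to 5216 and 6356, and the 7 mature neutrophil markers to 112287 and 131013. Nearly all of the last sum was S100a8 (50412 and 58817.5 CPM) and S100a9 (61123 and 71098 CPM). Of the rest, Mmp8, Retnlg and Il1f9 were higher in WT+ISO, while Cxcr2 had 40.8 and 43.2 CPM and Mmp9 105 and 103. In the azurophil-granule list Srgn was lower (1055 and 917 CPM), Mpo had 372 and 373 CPM, and the others were higher. The part of these lists in the ratio of the class II sum was not tested. The 5 B cell markers counted here summed to 4.35 and 6.70 CPM, mostly from Cd79b, at 92 and 164 UMIs. Cd79a had 10 and 24 UMIs, Ebf1 1 and 8, Ms4a1 1 and 0 and Pax5 2 and 1. The 5 plasmacytoid dendritic cell markers summed to 40.9 and 29.1 CPM, mostly from Tcf4, at 960 and 838 UMIs. Siglech had 1 and 0 UMIs, Ly6d 0 and 7, Cox6a2 29 and 3 and Ccr9 8 and 7.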

How the data were processed

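Single-cell RNA sequencing was carried out on 4 libraries, 1 per group, of which the 2 WT libraries are described. The other 2 libraries and some genes of the lists are not reported here. The deposited values are raw counts of UMIs for each gene in each barcode that the authors kept as a cell. The file header names Cell Ranger 7.0.0, whereas the submitters' processing notes name Cell Ranger 6.0.0, Seurat and mm10. How introns were counted is not given in the sources used here. The files also list 12 multiplexing tags, which were used here only to find the leading tag of each cell.

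The 10 genes and all lists were chosen with earlier results of these data known. Barcodes under 200 detected genes or over 10% mitochondrial UMIs were left out. Counts were summed per library or per cluster and library and given as CPM. Ratios carry exact conditional binomial 95% intervals, and shares carry Clopper-Pearson intervals. A gene was counted as past 2-fold among genes with at least 100 UMIs over both libraries. Clusters were found over the 4 libraries with scanpy 1.11.5 (10000 counts per cell, log scale, 2000 variable genes without the member and pathway genes, 30 principal components, 15 neighbours, Leiden resolution 1, seed 0). The rule for cluster names came from earlier work on these data and was applied to the cells of all 4 libraries. It asked for 3 or more markers seen in 10% or more of the cells, an average log2 ratio of 1 or more, and 1 or more of the 10 leading genes being a marker. No doublet caller was run, and doublets remain possible. Named genes are the 10 genes, the companion and class I genes with the largest and smallest ratios, checks of the labels and the 10 genes most like the class II sum (log2(CPM + 10), sums of at least 20 cells). Others (Ctss, March1, Irf8, the companions under 100 UMIs, H2-K1, H2-Oa, the leading genes and markers) were named after their values were seen. For shares of cells, each cell was thinned to 1000 UMIs. Alternatives were other cell filters, scalings, cluster settings, thinning depths and fold limits. The ratio was tested on simulated data. Tools were Python 3.11.15, numpy 2.4.6, scipy 1.17.1, pandas 2.3.3 and leidenalg 0.10.2. Promoters came from RefSeq GRCm38.p6, the build that matches mm10.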

Additional observations from a re-analysis of the deposited data

How the results depend on the processing

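No paired analysis was possible because a group is a single library, and for the same reason no library could be left out. The class II sum over all cells, with a log2 ratio of -1.43 for WT+ISO over WT+PBS, kept its direction under every alternative tried. The ratio was -0.61 with clusters at fixed weights, -1.35 with equal weight per cell, -1.48 with equal weight per gene and -1.39 with a total that leaves out the 20 most abundant genes. It was -1.46 with the stricter cell filter (1000 genes or more, mitochondrial UMIs of 5% or less), -1.40 without a filter on cells, -1.41 with median-of-ratios size factors and -1.44 without the 5% of cells with the most UMIs. Chosen after seeing the data, the sum without Cd74 gave -1.21, and all cells but the migratory dendritic cell-like cluster gave -1.49. With a limit of 1.5-fold, 9 of the 10 genes were past it in place of 7. The share of all genes past 1.5-fold is not given here, and the 1.88% above is for 2-fold. In the mononuclear phagocyte-like clusters the ratio of -0.53 was -0.81 at resolution 0.4, -0.33 at 1.5, -0.38 with 30 neighbours and -0.40 without the 5% of cells with the most UMIs. At resolution 0.4 the macrophage-like cluster held 440 cells of WT+PBS and 284 of WT+ISO, in place of 186 and 103. At resolution 1.5 the unnamed cluster with high class II is left out of these clusters. The share of cells with a chain UMI was higher at greater depth, 7.89% in WT+PBS and 3.79% in WT+ISO at 2000 UMIs per cell and 16.6% and 11.9% without thinning. The causes were not tested. Ciita, with 42 and 158 UMIs a library, is the gene that depth limits most.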

Other observations

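Eosinophil granule genes were lower in WT+ISO than in WT+PBS. Prg2, the granule major basic protein, was counted in 983 UMIs of WT+PBS and 27 of WT+ISO. Epx, the eosinophil peroxidase, had 188 and 7 UMIs in that order. The 4 eosinophil markers summed to 59.8 and 5.44 CPM, and no cluster was named from them. The class II genes were not compared with these genes beyond that, and no hypothesis was tested.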
